A study of Homo sapiens with 20 samples.

Results

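The genes that encode subunits of the oxidative phosphorylation machinery were followed in Hodgkin lymphoma cells in which FOXO1 had been switched on. They were picked by symbol alone: every gene with its own probe set on the array whose symbol starts with NDUF followed by A, B, C, S or V and a number, with UQCR, with COX and a number from 4 to 8, or with ATP5, together with the SDH genes. The rule found 81 of 18416 genes, read by 88 probe sets, and 79 of the 81 were bright enough to be tested among 15850 genes. The 2 others, the COX7B2 and COX8C isoforms, stayed below the floor. By name, 34 tested genes belonged to complex I, 3 to complex II, 8 to complex III, 15 to complex IV and 19 to complex V. The rule also takes symbols that name no subunit: the pseudogenes ATP5F1EP2 and UQCRBP1, the divergent transcript NDUFV1-DT, the retro-derived gene ATP5MGL and ATP5IF1, an inhibitor of the ATP synthase. ATP5F1E, NDUFC2, NDUFS5 and UQCRHL lay only in probe sets shared with other genes and are not analysed here. SDHB, UQCRFS1, NDUFA4 and the subunits encoded by mitochondrial DNA are not analysed here either.

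RNA came from 5 established lines of classical Hodgkin lymphoma, a B cell lymphoma: L428, KM-H2, SUP-HD1, UHO-1 and L1236. In all of them, vehicle arms included, the cells stably expressed FOXO1(3A)ER, a constitutively active human FOXO1 mutant fused to the hormone-binding part of the oestrogen receptor, which 4-hydroxytamoxifen (4-OHT) activates. Each line was kept for 24 h with 4-OHT or with the ethanol vehicle, and 2 arrays were made of each arm, giving 20 arrays in 10 groups. The labels give 200 µM as the dose, but in a text about a different fusion protein, in KM-H2 and L428. The groups compared hold no cells without the fusion protein, so an action of 4-OHT alone and one of FOXO1 cannot be told apart here. The labels say that the experiment was done 2 times and do not say how the replicate cultures were separated, so a p-value here reflects only how far these arrays scatter, which may be partly technical.

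In mitochondria, complex I takes electrons from NADH and complex II from succinate, complex III passes them to cytochrome c, and complex IV hands them to oxygen. Complexes I, III and IV pump protons across the inner membrane as they do so, and the ATP synthase, complex V, lets them back to make ATP. Complex I has a catalytic core and a large shell of accessory subunits, and complex V has a catalytic F1 head, a membrane-bound ring of c subunits and a stalk that joins them. NRF1, factors of the ETS family such as GABP, YY1 and, in growing lymphoid cells, MYC are known regulators of these nuclear genes.

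Values are log2 expression, so a change of 1 is a doubling, and a change is the 4-OHT mean minus the vehicle mean of the same line, given ± its standard error (n = 2 arrays an arm). A gene was called when limma's adjusted p was below 0.05, "average" is the mean of the 5 lines' changes, and "rose" and "fell" are kept for called changes. By their sorted values the arrays fell into 2 sets, one of KM-H2 and L428 and one of the other lines. The largest difference between sorted values of 2 arrays was at most 0.253 and 0.204 within these sets and at least 0.712 between them. The sets were taken as normalised separately, so levels are compared between lines only within a set. What set them apart was not tested. Array medians were 5.67 to 5.71 in the set with KM-H2 and 6.26 to 6.41 in the other. The arrays labelled L1236 stood apart from their label: the T cell genes CD3D, CD3E, CD3G and CD2 read 11.4, 12.2, 11.9 and 9.76 in the L1236 vehicle arrays and at most 5.83 in any vehicle group of the other lines. The 4 measured T cell genes of 5 fixed averaged 11.3 there and 11 with 4-OHT, while the Hodgkin cell gene IRF4 read 6.31 there and 11.4 or more in every other vehicle group. Within its set of arrays, L1236 vehicle also read lowest in the Hodgkin cell genes TRAF1 (5.36), FSCN1 (7.69), CCL17 (7.26) and CD274 (5.85), but not in TNFRSF8, the gene of CD30, at 7.76 there and 7.14 in SUP-HD1. The B cell genes CD79A (9.33) and CD79B (7.37) were highest in L1236 in that set, at 11.7 and 7.13 with 4-OHT, while PAX5 was lowest there (6.37) and MS4A1 near the bottom of the scale in all 5 lines. The average over the lines, the counts across lines, the complexes, the lists and the promoter counts are therefore also given without L1236, an alternative partly added after the data were seen. Single markers of other cells also moved with 4-OHT, among them LYZ in L1236 (4.27 to 7.93) and LUM in KM-H2 (3.41 to 12.2). The 4 measured myeloid markers averaged 4.55 to 5.67 over the vehicle groups and 4.63 to 6.22 with 4-OHT, and the 5 stromal markers 5.23 to 5.95 and 5.29 to 7.26. These values moved with the treatment, and their part in the results was not tested.

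The promoters of several members carry the short sequences that these regulators are known to bind, and 6 are shown to make these letters visible. The first 5 were picked because they hold matches, and COX7A2L as the largest rise, so they do not stand for the members as a whole. NDUFS7, UQCR11, COX5B, ATP5ME and ATP5F1C fell on average, and COX7A2L rose. Each line gives the 250 bases before the transcription start from RefSeq, assembly GRCh38.p14, read 5′ to 3′ on the strand of the gene. They were chosen after the values were seen. Capitals mark matches on either strand to GCGCATG (NRF1), CCGGAAG (ETS), CACGTG (the E-box that MYC binds), AAGATGG (YY1) and GTAAACA (FOXO).
NDUFS7: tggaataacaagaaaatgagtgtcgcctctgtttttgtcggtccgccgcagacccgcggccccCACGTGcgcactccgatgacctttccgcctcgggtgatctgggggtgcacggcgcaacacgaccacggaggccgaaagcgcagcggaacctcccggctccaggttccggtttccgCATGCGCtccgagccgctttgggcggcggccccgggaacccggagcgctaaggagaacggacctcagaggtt
UQCR11: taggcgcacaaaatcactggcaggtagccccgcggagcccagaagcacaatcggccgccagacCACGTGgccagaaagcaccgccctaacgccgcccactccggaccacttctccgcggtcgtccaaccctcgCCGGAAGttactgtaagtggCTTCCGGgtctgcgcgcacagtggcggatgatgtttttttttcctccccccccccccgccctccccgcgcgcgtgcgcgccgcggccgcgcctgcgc
COX5B: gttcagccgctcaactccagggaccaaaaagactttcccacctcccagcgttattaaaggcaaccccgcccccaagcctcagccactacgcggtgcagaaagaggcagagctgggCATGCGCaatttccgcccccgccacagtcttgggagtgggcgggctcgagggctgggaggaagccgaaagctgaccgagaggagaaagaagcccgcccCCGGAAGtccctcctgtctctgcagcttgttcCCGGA
ATP5ME: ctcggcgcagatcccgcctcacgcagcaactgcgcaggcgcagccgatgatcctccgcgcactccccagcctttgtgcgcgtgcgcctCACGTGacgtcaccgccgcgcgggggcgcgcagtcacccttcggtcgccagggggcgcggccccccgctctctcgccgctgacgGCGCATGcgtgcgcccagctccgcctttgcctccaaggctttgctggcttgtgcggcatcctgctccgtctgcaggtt
ATP5F1C: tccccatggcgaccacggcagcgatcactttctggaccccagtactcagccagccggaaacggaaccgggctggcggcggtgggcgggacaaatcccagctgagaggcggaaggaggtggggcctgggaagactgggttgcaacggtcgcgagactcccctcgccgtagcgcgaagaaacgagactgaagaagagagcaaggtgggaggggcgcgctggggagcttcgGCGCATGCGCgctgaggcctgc
COX7A2L: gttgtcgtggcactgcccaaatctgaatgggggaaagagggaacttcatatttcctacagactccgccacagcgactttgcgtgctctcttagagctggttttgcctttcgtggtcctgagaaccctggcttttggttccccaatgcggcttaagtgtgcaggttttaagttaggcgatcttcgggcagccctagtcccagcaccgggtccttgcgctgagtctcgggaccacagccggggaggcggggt
They lie at chr19:1383657-1383906, plus strand, chr19:1605463-1605712, minus strand, chr2:97645812-97646061, plus strand, chr4:674277-674526, minus strand, chr10:7787927-7788176, plus strand, and chr2:42361218-42361467, minus strand. In NDUFS7 an E-box began 187 bases before the start and an NRF1 match 72 bases before it. UQCR11 had an E-box at the same distance of 187 bases and ETS matches at 117 and 97. ATP5ME combined an E-box at 162 with an NRF1 match at 78, and COX5B an NRF1 match at 135 with ETS matches at 37 and 5, the last of which runs over the start and is shown in part. In ATP5F1C the NRF1 letters and their reverse complement overlap in one block that begins 22 bases before the start. The COX7A2L stretch held none of the 5 motifs, and neither did the promoters of NDUFV1, NDUFB10, COX5A and ATP5F1A, which fell. The promoters of NDUFS1 and ATP5MG, which rose, held ETS letters.

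Over 300 bases, 250 before and 50 after the start, the promoter table held 67 of the 81 members and 27305 promoters in all. NRF1 letters were in 13 of the 67 member promoters (19.4%) and in 4.67% of all promoters. For ETS the shares were 28.4% and 10.7%, and for YY1 22.4% and 6.06%. The E-box was in 10.4% of member promoters against 7.43% of all. Of the 7 promoters with an E-box, 6 belonged to the 27 members in the table that fell on average (NDUFA7, NDUFS7, UQCR11, ATP5MC1, ATP5ME and ATP5PB), 1 to the 34 that were not called (NDUFA11) and 0 to the 4 that rose. For NRF1 the members that fell and those not called held 7 of 27 and 6 of 34, for ETS 5 and 12, and for YY1 9 and 5. Of the 4 that rose, 0 held NRF1 letters, 2 ETS letters and 1 YY1 letters. With the calls made without L1236, the E-box was in 4 of 24 that fell, 3 of 36 not called and 0 of 5 that rose. The FOXO letters were in none of the 67 and in 3.41% of all promoters. These are matches of letters in a window, described without a test.

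With 4-OHT, more of these genes fell than rose. On average over the lines, 32 of the 79 members fell, 4 rose and 43 were not called, where 21.2% of all genes tested fell and 17.4% rose (38.6% either way). Falls were thus 40.5% of the members and rises 5.06%. The changes were small: they ran from -0.33 to 0.31, with a median of -0.07 over the members and -0.02 over all genes. The 5 lines' changes were below zero together in 24 members (30.4%), against 9.74% of all genes, and above zero together in 1. Without the arrays labelled L1236, 29 members fell and 7 rose (21% and 18.2% of all genes), and the 4 other lines were below zero together in 25 members (31.6%, against 15.2%). Of the 32 falls 27 remained, as did the 4 rises. The falls of ATP5PB (adjusted p = 0.0673), UQCR11 (0.064), ATP5MC2 (0.0987), UQCRC2 (0.152) and NDUFA8 (0.531) were not called without L1236, while COX6A2 and NDUFA13 were then lower, and SDHC, NDUFB8 and ATP5F1EP2 higher. The other scalings gave 31 to 32 falls and 4 to 6 rises, except cyclic loess within each set, which gave 23 falls and 9 rises and turned the split over all genes from 2765 higher and 3357 lower to 3363 higher and 2732 lower. Tested with the 5 lines as the replicates instead of the arrays, limma called 0 members (15 lower and 1 higher at an unadjusted p below 0.05) and 2 genes of all tested. At that unadjusted p the same test held 2515 of the 15850 genes tested.

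**Figure D1:**
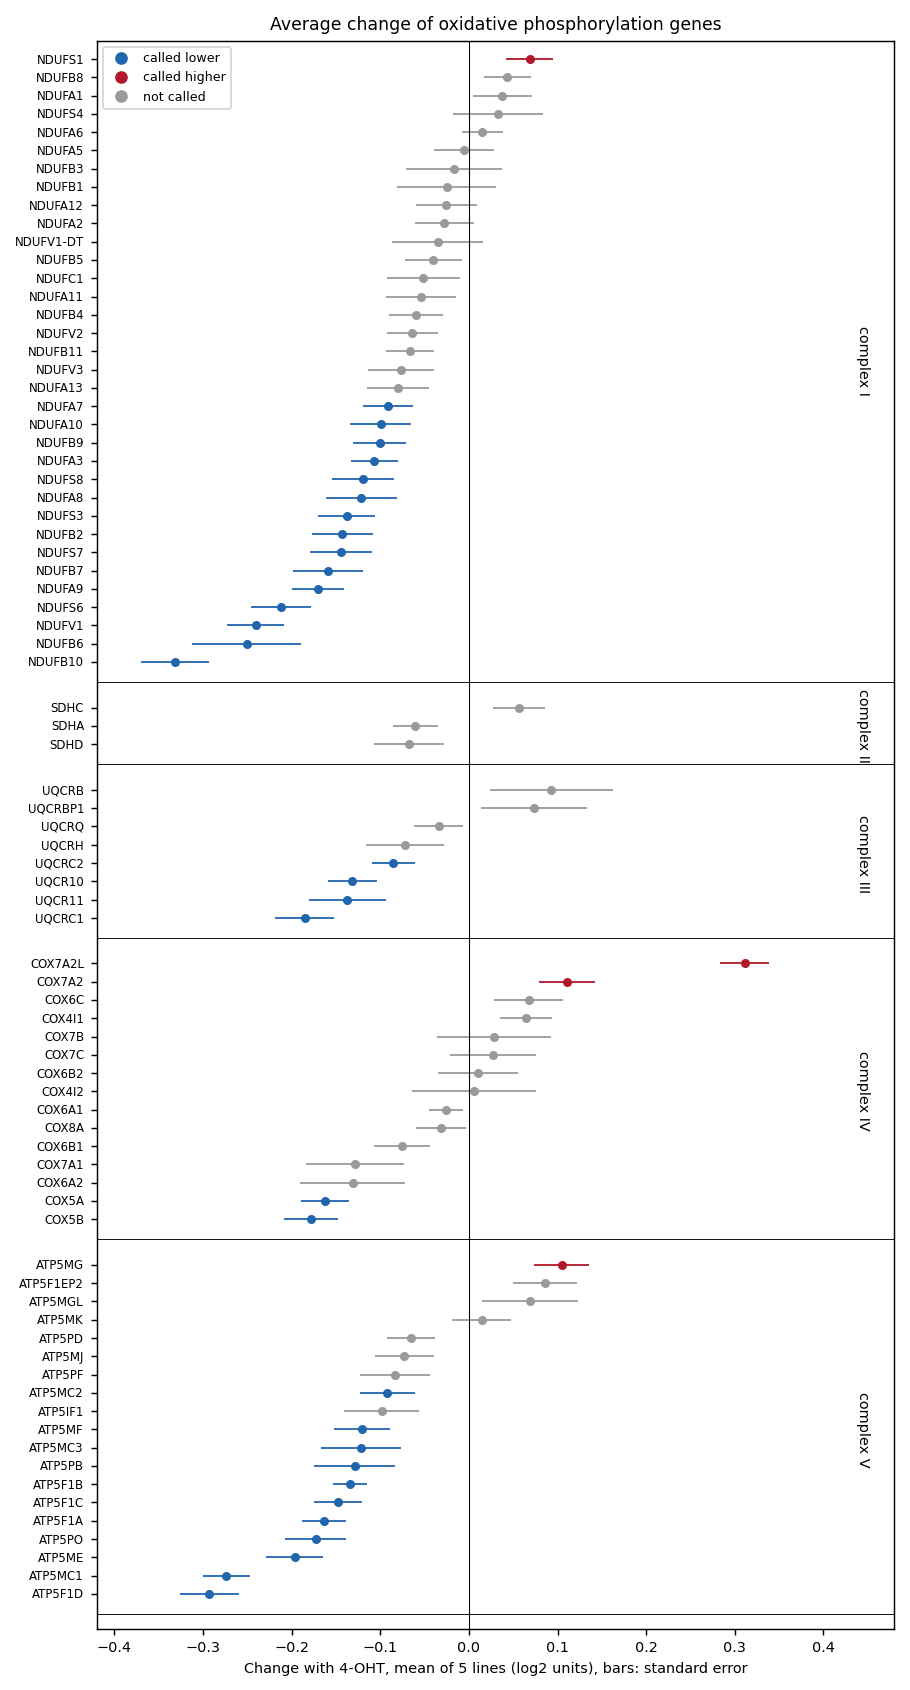
Each point is the average change of a tested member with 4-OHT over the 5 lines (x axis, log2 units; bars are standard errors), grouped by complex; blue points fell, red points rose and grey points were not called. Blue points make up 15 of 34 in complex I and 11 of 19 in complex V, but 2 of 15 in complex IV, where COX7A2L stands alone at 0.31.

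The complexes differed in their counts. In complex I, 15 of 34 fell and 1 rose (median -0.07). In complex III, 4 of 8 fell and none rose (median -0.08), and in complex V 11 of 19 fell and 1 rose (median -0.12). By the probe sets used and the scaling as deposited, none of the 3 measured genes of complex II was called on average. In complex IV 2 fell and 2 rose among 15, with a median of 0.0058. Medians of replicate arrays scattered around their group means with an SD of 0.028 in complex I, 0.052 in II, 0.043 in III, 0.027 in IV and 0.034 in V (10 degrees of freedom). These SDs are of single arrays. The median of complex IV was 0.0355 with cyclic loess and changed sign without single arrays, reaching -0.02 without L1236 vehicle 2, UHO-1 4-OHT 1 or SUP-HD1 vehicle 2. Leaving out isoforms typical of other tissues and NDUFV1-DT, ATP5F1EP2, UQCRBP1 and ATP5IF1 moved little. Then 15 of 33 fell in complex I, 4 of 7 in III, 2 of 11 in IV and 11 of 17 in V, with ATP5MGL still counted. Without L1236 the medians were -0.04 in complex I, -0.05 in II, -0.06 in III, 0.012 in IV and -0.11 in V, with 15 falls and 2 rises in I, 0 and 1 in II, 2 and 0 in III, 3 and 2 in IV and 9 and 2 in V. No test was made between the complexes, whose genes are not replicates.

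In the catalytic core of complex I, 4 of 6 measured subunits fell and 1 rose, with a median of -0.13. NDUFV1, the flavoprotein subunit where NADH is oxidised, was lower in every line. It read 10.65 and 10.5 against 10.23 and 10.22 in KM-H2, where the first pair is vehicle and the second 4-OHT, and 10.81 and 10.72 against 10.54 and 10.34 in L428. In the other set it read 9.57 and 9.5 against 9.38 and 9.26 in L1236, 9.87 and 9.77 against 9.62 and 9.56 in UHO-1 and 9.9 and 9.96 against 9.9 and 9.8 in SUP-HD1. The vehicle arrays were above the 4-OHT arrays in all 5 lines, in SUP-HD1 by less than the rounding shows. NDUFV1 fell by 0.24 ± 0.032 (adjusted p = 1.96e-06) on average and was the only member called lower in 4 lines (1.41% of all genes were called lower in at least 4), by 0.35 ± 0.071 (adjusted p = 0.000662) in KM-H2, 0.32 ± 0.071 (adjusted p = 0.00111) in L428, 0.22 ± 0.071 (adjusted p = 0.0287) in L1236 and 0.23 ± 0.071 (adjusted p = 0.0239) in UHO-1. The L1236 call was lost without L1236 vehicle 1 or L1236 4-OHT 2 (up to adjusted p = 0.274), and the UHO-1 call without UHO-1 vehicle 1, UHO-1 4-OHT 1 or UHO-1 4-OHT 2 (up to 0.162) or without the intensity trend (0.0594). All 3 other scalings also ended the L1236 call (0.0625 to 0.247), so that 4 lines holds for the scaling as deposited only.

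Among the other core subunits, NDUFS7 fell by 0.14 ± 0.035 (adjusted p = 0.00182), NDUFS3 fell by 0.14 ± 0.032 (adjusted p = 0.00139) and NDUFS8 fell by 0.12 ± 0.035 (adjusted p = 0.00839). NDUFS7 and NDUFS8 carry iron-sulphur clusters on the path to ubiquinone. NDUFS1, the largest core subunit, went the other way, by 0.07 ± 0.026 (adjusted p = 0.0445). Its arrays read 9.44 and 9.45 against 9.59 and 9.53 in KM-H2, 10.24 and 10.28 against 10.33 and 10.31 in L428 and 9.84 and 9.96 against 9.77 and 9.74 in L1236. In UHO-1 they read 9.96 and 9.87 against 10.11 and 10.02, and in SUP-HD1 9.96 and 9.99 against 10.17 and 10.09. The arms were apart in all 5 lines, with 4-OHT lower in L1236 and higher in the other 4, and no line was called by itself. The average call for NDUFS1 was lost without any 1 of 14 of the 20 arrays (up to adjusted p = 0.107): KM-H2 vehicle 1, KM-H2 vehicle 2, KM-H2 4-OHT 1, L428 vehicle 1, L428 vehicle 2, L428 4-OHT 1, L428 4-OHT 2, L1236 vehicle 1, L1236 4-OHT 1, UHO-1 vehicle 2, UHO-1 4-OHT 1, SUP-HD1 vehicle 1, SUP-HD1 vehicle 2 or SUP-HD1 4-OHT 1. It was also lost with no floor (0.051), with no intensity trend (0.0957), and without KM-H2, L428, UHO-1 or SUP-HD1 (0.0989 to 0.262).

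NDUFV2, the partner of NDUFV1 in the NADH module, moved in opposite directions. It read 7.99 and 7.96 against 8.27 and 8.19 in KM-H2 and 8.43 and 8.37 against 8.04 and 8.12 in L428. It read 10.25 and 10.3 against 9.86 and 9.76 in L1236, 9.86 and 9.86 against 10.04 and 9.95 in UHO-1 and 10.39 and 10.35 against 10.49 and 10.4 in SUP-HD1. The arms did not overlap in any line, and 4-OHT was higher in KM-H2, UHO-1 and SUP-HD1 and lower in the other 2. NDUFV2 rose by 0.26 ± 0.064 (adjusted p = 0.00415) in KM-H2, a call lost without KM-H2 4-OHT 1 (adjusted p = 0.0625), and fell by 0.31 ± 0.064 (adjusted p = 0.000465) in L428 and by 0.47 ± 0.064 (adjusted p = 6.8e-06) in L1236. Its change differed between the lines by limma's F test (adjusted p = 2.01e-06), and its other probe set read the same directions, at 0.28, -0.35 and -0.51 in these 3 lines.

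Of the 28 members of complex I outside the core, NDUFV1-DT among them, 11 fell and none rose on average (median -0.06). NDUFB10, which sits in the membrane arm, fell most. It read 7.77 and 7.77 against 7.4 and 7.29 in KM-H2, 8.74 and 8.8 against 8.18 and 8.27 in L428 and 9.35 and 9.51 against 9.12 and 9.08 in L1236. In UHO-1 it read 8.55 and 8.54 against 8.5 and 8.23 and in SUP-HD1 9.38 and 9.22 against 9.12 and 9.11. The 4-OHT arrays were below the vehicle arrays in all 5 lines. NDUFB10 fell by 0.33 ± 0.038 (adjusted p = 2.93e-07) on average, by 0.42 ± 0.086 (adjusted p = 0.000687) in KM-H2, 0.55 ± 0.086 (adjusted p = 2.88e-05) in L428 and 0.33 ± 0.086 (adjusted p = 0.00711) in L1236, the last lost without L1236 vehicle 2 or L1236 4-OHT 2 (up to adjusted p = 0.119). UHO-1 and SUP-HD1 were at -0.18 ± 0.086 (adjusted p = 0.12) and -0.18 ± 0.086 (adjusted p = 0.288).

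NDUFB6, another membrane arm subunit, fell by 0.25 ± 0.061 (adjusted p = 0.00214) on average with a wide spread over the lines. Its arrays were 8.07 and 8.11 against 8.04 and 7.68 in KM-H2, 7.2 and 7.01 against 6.37 and 6.57 in L428 and 8.56 and 8.77 against 8.35 and 8.07 in L1236. Those of UHO-1 were 7.72 and 7.6 against 7.87 and 7.75, and those of SUP-HD1 9.15 and 8.67 against 8.79 and 8.85. The 4-OHT arrays lay below vehicle in KM-H2, L428 and L1236, above it in UHO-1, and overlapped it in SUP-HD1. In L428 NDUFB6 fell by 0.63 ± 0.14 (adjusted p = 0.00098), the largest fall of any member in that line, and in L1236 by 0.46 ± 0.14 (adjusted p = 0.0177), a call lost without L1236 vehicle 2 or L1236 4-OHT 2 (up to 0.246). Leaving out L428 ended the average call (adjusted p = 0.0931). The rest of the accessory falls on average were NDUFS6, NDUFA9, NDUFB7, NDUFB2, NDUFA8, NDUFA3, NDUFB9, NDUFA10 and NDUFA7, between -0.21 ± 0.034 and -0.09 ± 0.029. The 17 members outside the core that were not called, NDUFV1-DT included, lay between -0.08 ± 0.035 (NDUFA13) and 0.04 ± 0.026 (NDUFB8).

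Some accessory subunits rose in single lines. NDUFB8, a subunit of the membrane arm, read 9.54 and 9.47 against 9.94 and 9.76 in KM-H2, 9.91 and 9.84 against 10 and 9.93 in L428 and 11.22 and 11.29 against 11.09 and 11.08 in L1236. It read 10.76 and 10.83 against 10.74 and 10.7 in UHO-1 and 11.19 and 11.16 against 11.17 and 11.22 in SUP-HD1. The arms overlapped only in SUP-HD1, and 4-OHT was higher in KM-H2 and L428 and lower in L1236 and UHO-1. NDUFB8 rose by 0.35 ± 0.059 (adjusted p = 9.76e-05) in KM-H2, the largest rise of a member there, and fell by 0.17 ± 0.059 (adjusted p = 0.0413) in L1236. The L1236 call was lost without L1236 vehicle 2, L1236 4-OHT 1, L1236 4-OHT 2, SUP-HD1 4-OHT 1 or SUP-HD1 4-OHT 2 (up to adjusted p = 0.272) and with all 3 other scalings (0.116 to 0.444).

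NDUFA5 and NDUFA6, small subunits of the matrix arm, also changed sign between lines. NDUFA5 read 9.05 and 9.28 against 9.47 and 9.4 in KM-H2 and 10.02 and 9.98 against 9.81 and 9.7 in L428. It read 8.56 and 8.67 against 8.45 and 8.39 in L1236, 8.43 and 8.44 against 8.66 and 8.63 in UHO-1 and 8.44 and 8.37 against 8.35 and 8.31 in SUP-HD1. The 4-OHT arrays were higher in KM-H2 and UHO-1 and lower in the other 3, with no overlap. NDUFA5 rose by 0.27 ± 0.076 (adjusted p = 0.0114) in KM-H2 and by 0.22 ± 0.076 (adjusted p = 0.0407) in UHO-1, and fell by 0.25 ± 0.076 (adjusted p = 0.0159) in L428. The KM-H2 call was lost without KM-H2 vehicle 1 or KM-H2 4-OHT 1 (up to adjusted p = 0.302), the L428 call without L428 vehicle 1 or L428 4-OHT 2 (up to 0.159) and the UHO-1 call without any of its 4 arrays (up to 0.158). Cyclic loess ended the L428 call of NDUFA5 (0.13), and quantile normalisation (0.144) and median centring (0.0577) the UHO-1 call.

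NDUFA6 read 9.24 and 9.24 against 9.18 and 9.09 in KM-H2 and 9.61 and 9.66 against 9.53 and 9.58 in L428. It read 11.27 and 11.29 against 11.13 and 11.08 in L1236, 10.94 and 10.97 against 11.2 and 11.14 in UHO-1 and 10.58 and 10.55 against 10.79 and 10.79 in SUP-HD1. No arms overlapped, with 4-OHT lower in the first 3 of these lines and higher in the last 2. NDUFA6 fell by 0.18 ± 0.052 (adjusted p = 0.0149) in L1236 and rose by 0.21 ± 0.052 (adjusted p = 0.00495) in UHO-1 and by 0.23 ± 0.052 (adjusted p = 0.00875) in SUP-HD1. The L1236 call was lost without L1236 vehicle 2 or L1236 4-OHT 2 (up to adjusted p = 0.137) and with all 3 other scalings (0.0508 to 0.294), the UHO-1 call without UHO-1 4-OHT 1 (0.0658) and the SUP-HD1 call without SUP-HD1 vehicle 2, SUP-HD1 4-OHT 1 or SUP-HD1 4-OHT 2 (up to 0.0827). NDUFA1, a subunit at the junction of the arms, was at 10.13 and 10.03 against 9.91 and 10.02 in KM-H2, 10.52 and 10.42 against 10.49 and 10.47 in L428 and 8.38 and 8.56 against 8.56 and 8.4 in L1236. Its values were 8.62 and 8.55 against 8.67 and 8.56 in UHO-1 and 8.67 and 8.62 against 8.93 and 8.88 in SUP-HD1. Only KM-H2, with 4-OHT lower, and SUP-HD1, with 4-OHT higher, kept the arms apart. Its rise of 0.26 ± 0.075 (adjusted p = 0.0442) in SUP-HD1 was lost without any 1 of 10 arrays (up to adjusted p = 0.294): KM-H2 vehicle 1, KM-H2 vehicle 2, L428 vehicle 1, L428 vehicle 2, L428 4-OHT 1, L428 4-OHT 2, SUP-HD1 vehicle 1, SUP-HD1 vehicle 2, SUP-HD1 4-OHT 1 or SUP-HD1 4-OHT 2.

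In complex II, SDHA moved in opposite directions in 2 lines. SDHA is the flavoprotein that oxidises succinate. It read 10.35 and 10.46 against 9.81 and 9.82 in KM-H2 and 10.64 and 10.65 against 10.78 and 10.58 in L428. It read 10.76 and 10.74 against 10.66 and 10.64 in L1236, 10.49 and 10.51 against 10.87 and 10.84 in UHO-1 and 10.44 and 10.42 against 10.44 and 10.43 in SUP-HD1. The 4-OHT arrays were far below vehicle in KM-H2, slightly below it in L1236, above it in UHO-1, and overlapped it in L428 and SUP-HD1. SDHA fell by 0.59 ± 0.058 (adjusted p = 3.75e-08) in KM-H2, the largest fall of a member in that line, and rose by 0.35 ± 0.058 (adjusted p = 0.000125) in UHO-1, and both calls held without each array in turn. The F test of a difference between lines gave its smallest adjusted p among the members here (adjusted p = 1.14e-07), and the average was -0.06 ± 0.026 (adjusted p = 0.0692). That average was positive, at 0.08 (adjusted p = 0.044), over L1236, UHO-1 and SUP-HD1 alone.

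The membrane anchors of complex II, SDHC and SDHD, were not called, at 0.06 ± 0.029 (adjusted p = 0.146) and -0.07 ± 0.039 (adjusted p = 0.193) on average. The SDHC average was called higher with cyclic loess (adjusted p = 0.0092) and without L1236 (0.0421). SDHC read 9.74 and 9.78 against 9.94 and 9.86 in KM-H2, 9.17 and 9.16 against 9.37 and 9.11 in L428 and 11.35 and 11.29 against 11.29 and 11.2 in L1236. In UHO-1 it read 11.24 and 11.2 against 11.3 and 11.23 and in SUP-HD1 11.54 and 11.48 against 11.63 and 11.58. The arms were apart in KM-H2 and SUP-HD1, with 4-OHT higher, and overlapped elsewhere. SDHD read 9.88 and 9.7 against 9.95 and 9.61 in KM-H2, 8.49 and 8.7 against 8.48 and 8.39 in L428 and 10.67 and 10.74 against 10.55 and 10.55 in L1236. In UHO-1 SDHD read 10.86 and 11.01 against 10.86 and 10.83 and in SUP-HD1 10.08 and 10.1 against 10.2 and 10.14. SDHD was lower with 4-OHT in L428 and L1236, higher in SUP-HD1, and overlapped in KM-H2 and UHO-1. Each has a dimmer second probe set that read other amounts in L428, 0.42 against 0.07 for SDHC and -0.32 against -0.15 for SDHD. The second SDHC set also read 0.29 against 0.14 in KM-H2 and 0.13 against 0.06 on average. For SDHD it was -0.10 against -0.02 in KM-H2 and -0.11 against -0.07 on average. The calls given are those of the brighter sets, and which set reads the gene better was not tested.

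In complex III, UQCRC1, a core subunit of the matrix side, fell most. It read 9.6 and 9.5 against 9.28 and 9.3 in KM-H2, 9.73 and 9.68 against 9.45 and 9.33 in L428 and 8.53 and 8.59 against 8.4 and 8.23 in L1236. It read 8.23 and 8.13 against 8.1 and 8.08 in UHO-1 and 8.35 and 8.35 against 8.39 and 8.29 in SUP-HD1. Vehicle lay above 4-OHT in the first 4 of these lines and overlapped it in SUP-HD1. UQCRC1 fell by 0.19 ± 0.033 (adjusted p = 8.37e-05) on average, by 0.26 ± 0.074 (adjusted p = 0.0114) in KM-H2, 0.31 ± 0.074 (adjusted p = 0.00194) in L428 and 0.25 ± 0.074 (adjusted p = 0.0165) in L1236. The KM-H2 call was lost without KM-H2 vehicle 1 or KM-H2 4-OHT 1 (up to adjusted p = 0.141) and the L1236 call without L1236 vehicle 2 or L1236 4-OHT 2 (up to 0.261). Its partner UQCRC2 fell by 0.09 ± 0.024 (adjusted p = 0.00649) on average, and the small subunits UQCR10 and UQCR11 by 0.13 ± 0.028 (adjusted p = 0.000522) and 0.14 ± 0.044 (adjusted p = 0.015). UQCRB, at 0.09 ± 0.069 (adjusted p = 0.324), UQCRH, at -0.07 ± 0.044 (adjusted p = 0.221), and UQCRQ, at -0.03 ± 0.028 (adjusted p = 0.373), were not called, nor was the pseudogene UQCRBP1.

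Complex IV held both directions. COX7A2L, a relative of COX7A2 known for joining complexes III and IV into supercomplexes, rose most of all members. It read 9.4 and 9.36 against 9.71 and 9.58 in KM-H2 and 10.25 and 10.3 against 11.03 and 10.97 in L428. It read 9.81 and 9.95 against 9.72 and 9.65 in L1236, 9.84 and 9.88 against 10.27 and 10.33 in UHO-1 and 9.31 and 9.39 against 9.64 and 9.69 in SUP-HD1. The arms were apart in all 5 lines, with 4-OHT higher in KM-H2, L428, UHO-1 and SUP-HD1 and lower in L1236. COX7A2L rose by 0.31 ± 0.028 (adjusted p = 6.14e-09) on average and was the only member called higher in 4 lines, by 0.26 ± 0.063 (adjusted p = 0.00306) in KM-H2, 0.73 ± 0.063 (adjusted p = 5.85e-09) in L428, 0.44 ± 0.063 (adjusted p = 2.38e-05) in UHO-1 and 0.32 ± 0.063 (adjusted p = 0.00219) in SUP-HD1, where 1.67% of all genes were called higher in 4 lines or more. In L1236 it fell by 0.19 ± 0.063 (adjusted p = 0.0266), so its change differed between the lines (adjusted p = 5.41e-07). The KM-H2 call was lost without KM-H2 4-OHT 1 (adjusted p = 0.0742) and the L1236 call without L1236 vehicle 2 or L1236 4-OHT 2 (up to 0.315), and all 3 other scalings ended the L1236 call. COX7A2, the common COX7A isoform, rose by 0.11 ± 0.032 (adjusted p = 0.00734) on average.

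COX5A and COX5B, subunits next to the catalytic core of complex IV, were the falls. COX5B read 8.51 and 8.37 against 8.08 and 8.18 in KM-H2, 9.18 and 9.18 against 8.91 and 9.06 in L428 and 11.55 and 11.54 against 11.34 and 11.25 in L1236. It read 11.22 and 11.12 against 11.11 and 11.06 in UHO-1 and 11.35 and 11.18 against 11.19 and 11.25 in SUP-HD1. The 4-OHT arrays lay below vehicle in every line but SUP-HD1, where they overlapped. COX5B fell by 0.18 ± 0.03 (adjusted p = 5.19e-05) on average, by 0.31 ± 0.068 (adjusted p = 0.00154) in KM-H2, 0.19 ± 0.068 (adjusted p = 0.0347) in L428 and 0.25 ± 0.068 (adjusted p = 0.00852) in L1236. The L428 call was lost without L428 vehicle 1, L428 vehicle 2 or L428 4-OHT 1 (up to adjusted p = 0.338) and the L1236 call without L1236 4-OHT 2 (0.111). Cyclic loess also ended both (0.236 and 0.101), and quantile normalisation that of L428 (0.0754). COX5A fell by 0.16 ± 0.027 (adjusted p = 3.95e-05) on average, and was called in KM-H2, L428 and L1236. These COX5A calls were lost without KM-H2 vehicle 1, KM-H2 vehicle 2 or KM-H2 4-OHT 2 in the first (up to 0.369), L428 vehicle 1 or L428 4-OHT 1 in the second (up to 0.12) and L1236 vehicle 1 or L1236 4-OHT 1 in the third (up to 0.139). Cyclic loess ended all 3 (0.0646, 0.42 and 0.287), quantile normalisation those of L428 (0.0634) and L1236 (0.0916), and median centring that of KM-H2 (0.119).

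COX7B, an accessory subunit, separated L1236 from UHO-1. It read 8.31 and 8.63 against 8.6 and 8.55 in KM-H2, 9.13 and 8.78 against 8.98 and 9 in L428 and 8.9 and 9.05 against 8.59 and 8.25 in L1236. In UHO-1 it read 8.16 and 8.28 against 8.62 and 8.64 and in SUP-HD1 8.54 and 8.02 against 8.57 and 8.28. The arms were apart only in L1236, with 4-OHT lower, and in UHO-1, with 4-OHT higher. COX7B fell by 0.55 ± 0.14 (adjusted p = 0.00586) in L1236, the largest fall of a member there, and rose by 0.41 ± 0.14 (adjusted p = 0.0399) in UHO-1, and its change differed between the lines (adjusted p = 0.00659). The first call was lost without L1236 vehicle 2 or L1236 4-OHT 2 (up to adjusted p = 0.142) and the second without any of the 4 UHO-1 arrays (up to 0.176), with quantile normalisation (0.062) or with cyclic loess (0.059).

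COX6C, another accessory subunit, read 9.43 and 9.44 against 9.51 and 9.28 in KM-H2, 10.78 and 10.65 against 11.18 and 11.03 in L428 and 9.91 and 10.01 against 9.89 and 9.82 in L1236. Its UHO-1 arrays read 9.32 and 9.23 against 9.42 and 9.25 and its SUP-HD1 arrays 9.23 and 9.1 against 9.31 and 9.07. Only in L428 were the 4-OHT arrays above vehicle, in L1236 they were below it, and the other lines overlapped. COX6C rose by 0.40 ± 0.087 (adjusted p = 0.0011) in L428, a call that held without each array in turn. COX4I1, the common isoform of the largest nuclear-encoded subunit, was at 0.06 ± 0.029 (adjusted p = 0.0934) on average and rose by 0.26 ± 0.066 (adjusted p = 0.00407) in L428, a call lost without L428 4-OHT 1 (0.0975).

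The isoforms that are typical of muscle, lung or testis, COX4I2, COX6A2, COX6B2 and COX7A1, were not called on average, at 0.01 ± 0.07, -0.13 ± 0.059, 0.01 ± 0.045 and -0.13 ± 0.056. COX6A2, the heart and muscle form, read 6.64 and 6.6 against 6.43 and 6.72 in KM-H2, 6.9 and 6.53 against 6.51 and 6.61 in L428 and 7.33 and 7.01 against 7.27 and 7.35 in L1236. Its values were 7.4 and 7.39 against 6.97 and 7.06 in UHO-1 and 7.18 and 7.39 against 6.95 and 7.2 in SUP-HD1. The arms overlapped everywhere but in UHO-1, where COX6A2 fell by 0.38 ± 0.13 (adjusted p = 0.0405), a call lost without any of the 4 UHO-1 arrays (up to 0.176) or with cyclic loess (0.122). The remaining members of complex IV, COX6A1, COX6B1, COX7C and COX8A, were not called on average, between -0.08 ± 0.032 and 0.03 ± 0.049.

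**Figure D2:**
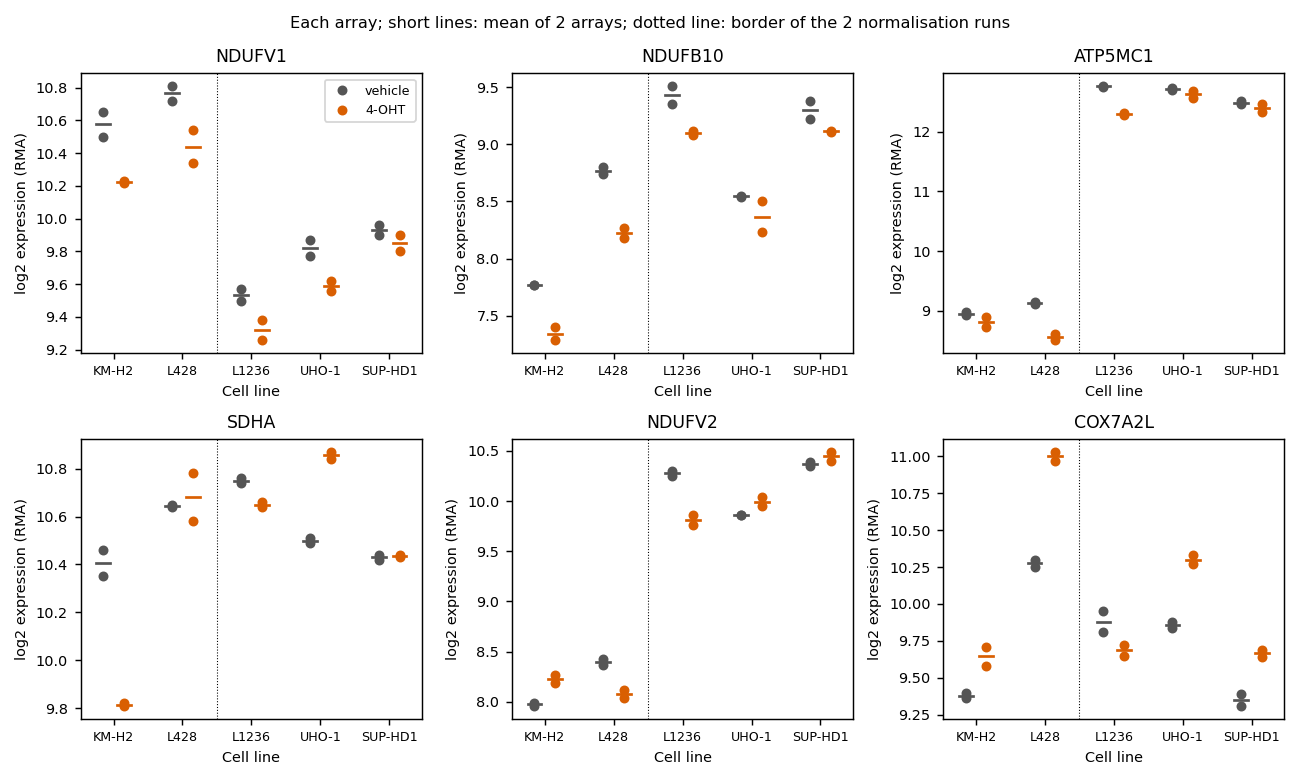
Each point is 1 array (y axis, log2 expression), grey for vehicle and orange for 4-OHT, for 6 members in the 5 lines (x axis). Short lines are means of 2 arrays. The dotted line separates the 2 sets taken as normalised apart, across which heights are not compared. NDUFV1 and NDUFB10 are lower with 4-OHT in all 5 lines, COX7A2L is higher in all but L1236, and SDHA and NDUFV2 change in opposite directions.

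The ATP synthase showed the largest share of falls, 11 of 19. All 4 measured subunits of the F1 head fell on average (median -0.16), and all 3 genes of the c ring (median -0.12). In the stalk ATP5PO and ATP5PB fell, by 0.17 ± 0.034 (adjusted p = 0.000265) and 0.13 ± 0.045 (adjusted p = 0.0274), while ATP5PD and ATP5PF did not pass. Of the 5 other membrane subunits measured, ATP5ME fell by 0.20 ± 0.032 (adjusted p = 3.04e-05), ATP5MF by 0.12 ± 0.032 (adjusted p = 0.0039), ATP5MG rose, and ATP5MJ and ATP5MK were not called. ATP5IF1, which blocks the enzyme when it would run backwards, was at -0.10 ± 0.042 (adjusted p = 0.0723).

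ATP5F1D, the delta subunit at the foot of the head, fell most. It read 9.2 and 9.27 against 9.1 and 9.22 in KM-H2, 9.94 and 9.97 against 9.44 and 9.39 in L428 and 10.12 and 9.94 against 9.73 and 9.64 in L1236. In UHO-1 it read 9.55 and 9.37 against 9.13 and 9.04 and in SUP-HD1 10.08 and 10.21 against 9.98 and 10.04. In all lines but KM-H2, where the arms overlapped, 4-OHT lay below vehicle. ATP5F1D fell by 0.29 ± 0.033 (adjusted p = 1.92e-07) on average, by 0.54 ± 0.074 (adjusted p = 4.45e-06) in L428, 0.34 ± 0.074 (adjusted p = 0.0013) in L1236 and 0.37 ± 0.074 (adjusted p = 0.000901) in UHO-1, and these calls held without each array in turn.

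The catalytic subunits of the head fell by less. ATP5F1B, the beta subunit that makes ATP, fell by 0.13 ± 0.019 (adjusted p = 5.03e-06) on average, ATP5F1A, the alpha subunit, by 0.16 ± 0.025 (adjusted p = 1.31e-05), and ATP5F1C, the central gamma shaft, by 0.15 ± 0.027 (adjusted p = 0.000103). ATP5F1B read 13.12 and 13.12 against 13.04 and 12.93 in KM-H2, 13.35 and 13.3 against 13.16 and 13.14 in L428 and 12.47 and 12.52 against 12.31 and 12.22 in L1236. In UHO-1 it read 12.58 and 12.55 against 12.5 and 12.48 and in SUP-HD1 12.46 and 12.4 against 12.37 and 12.39. The 4-OHT arrays of ATP5F1B were below vehicle in all 5 lines. ATP5F1A read 10.74 and 10.71 against 10.61 and 10.5 in KM-H2, 11.08 and 11.12 against 10.91 and 10.85 in L428 and 11.01 and 10.9 against 10.73 and 10.62 in L1236. For ATP5F1A the values were 10.19 and 10.21 against 10.09 and 10.02 in UHO-1 and 11.06 and 10.98 against 11.01 and 11.01 in SUP-HD1. ATP5F1A was below vehicle in all lines but SUP-HD1, where the arms overlapped.

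The c ring is encoded by 3 genes whose mature proteins are the same. ATP5MC1 read 8.97 and 8.93 against 8.72 and 8.89 in KM-H2, 9.15 and 9.11 against 8.51 and 8.61 in L428 and 12.76 and 12.77 against 12.31 and 12.28 in L1236. It read 12.74 and 12.71 against 12.69 and 12.57 in UHO-1 and 12.51 and 12.47 against 12.47 and 12.34 in SUP-HD1. The 4-OHT arrays were lower in all lines but SUP-HD1, where they overlapped. ATP5MC1 fell by 0.27 ± 0.026 (adjusted p = 1.71e-08) on average, by 0.57 ± 0.059 (adjusted p = 8.36e-08) in L428 and 0.47 ± 0.059 (adjusted p = 2.24e-06) in L1236, calls that held without each array in turn, and its change differed between the lines (adjusted p = 4.5e-05). ATP5MC2 fell by 0.09 ± 0.031 (adjusted p = 0.0202) and ATP5MC3 by 0.12 ± 0.045 (adjusted p = 0.0361) on average, and neither was called in a single line. The ATP5MC2 call was lost without L428 4-OHT 2, UHO-1 vehicle 2 or UHO-1 4-OHT 2 (up to adjusted p = 0.0613). That of ATP5MC3 was lost without any 1 of 12 arrays (up to 0.0859): KM-H2 vehicle 1, KM-H2 vehicle 2, KM-H2 4-OHT 2, L428 vehicle 1, L428 4-OHT 2, L1236 vehicle 1, L1236 4-OHT 2, UHO-1 vehicle 2, UHO-1 4-OHT 2, SUP-HD1 vehicle 2, SUP-HD1 4-OHT 1 or SUP-HD1 4-OHT 2. Quantile normalisation ended both calls (0.0595 for ATP5MC2 and 0.0508 for ATP5MC3), as did cyclic loess (0.142 and 0.103), and median centring ended that of ATP5MC3 (0.0586).

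ATP5MG, a small membrane subunit, was the rise of complex V. It read 10.72 and 10.52 against 10.82 and 10.71 in KM-H2, 9.4 and 9.49 against 9.74 and 9.64 in L428 and 11 and 11.11 against 11.05 and 11.05 in L1236. In UHO-1 it read 10.73 and 10.71 against 10.75 and 10.64 and in SUP-HD1 9.77 and 9.63 against 9.91 and 9.83. The 4-OHT arrays were above vehicle in L428 and SUP-HD1 and overlapped it in the other lines. ATP5MG rose by 0.10 ± 0.031 (adjusted p = 0.0102) on average and by 0.25 ± 0.07 (adjusted p = 0.00835) in L428, the latter lost without L428 vehicle 1 or L428 4-OHT 1 (up to 0.103), and leaving out L428 ended the average call (adjusted p = 0.151). The retro-derived ATP5MGL and the pseudogene ATP5F1EP2, at 0.07 ± 0.054 and 0.09 ± 0.036, are near copies of other members, so their values are uncertain.

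**Figure D3:**
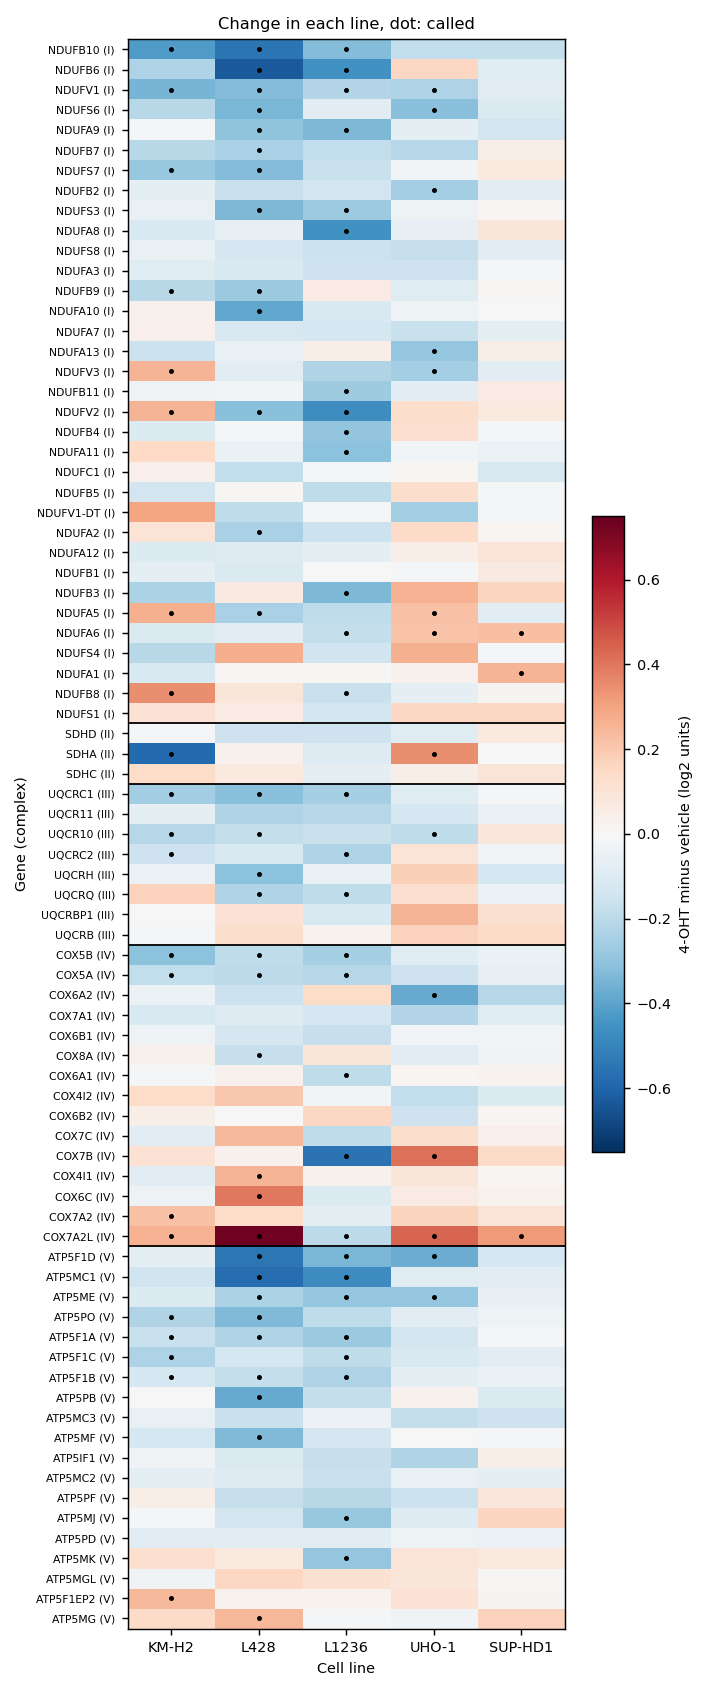
Rows are the 79 tested members, grouped by complex and ordered by average change, and columns are the 5 lines; colour is the 4-OHT minus vehicle difference in log2 units (blue lower, red higher), and a dot marks a call. L428 and L1236 hold most of the blue cells with dots, 28 and 29, while SUP-HD1 has 3 dots, all red.

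By line, the falls gathered in L428 and L1236. In L428, 28 members fell and 4 rose (17.5% and 12% of all genes), with a median of -0.12 beside -0.0062 over all genes. In the arrays labelled L1236, 29 fell and 0 rose (14.9% and 8.25%), with a median of -0.17 beside -0.0028. In KM-H2, 14 fell and 7 rose (12.3% and 10%), and in UHO-1 9 fell and 5 rose (11.1% and 13.4%), so that the falls were 17.7% and 11.4% of the members. In SUP-HD1, 0 fell and 3 rose (2.35% and 3.68%), these being COX7A2L, NDUFA1 and NDUFA6. By complex, L428 held 13 of the falls in complex I, 4 in III, 3 in IV and 8 in V, and L1236 13, 3, 5 and 8. In KM-H2 complex I was even, with 4 rises and 4 falls, and in UHO-1 it held 5 of the 9 falls.

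The counts by line depended on the scaling. With cyclic loess, 15 members fell and 10 rose in L428, 15 fell in L1236, and 15 fell and 6 rose in UHO-1. With quantile normalisation 23 fell and 3 rose in UHO-1, and with median centring 8 fell and 12 rose in KM-H2 and 16 fell and 4 rose in UHO-1. The split over all genes moved as well: higher against lower, it went from 1901 and 2772 to 2395 and 2329 in L428 and from 1307 and 2354 to 1843 and 1807 in L1236 with cyclic loess. With median centring it went to 1697 and 1976 in L1236, from 1592 and 1943 to 2113 and 1625 in KM-H2 and from 2118 and 1760 to 1857 and 2336 in UHO-1. In UHO-1 it went to 2314 and 1334 with cyclic loess and to 1881 and 1996 with quantile normalisation. Falls there were thus 8.42% and 12.6% of all genes, beside 11.1% with the scaling as deposited. The median of the members in SUP-HD1, at -0.0087, became 0.0065 with cyclic loess.

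Single arrays also moved these counts. In L1236 the falls were 18 without vehicle 2 and 11 without 4-OHT 2. In KM-H2 they were 5 and 8 without vehicle 1 and 2, 9 and 8 without 4-OHT 1 and 2, and the rises were 4 without vehicle 2 and 2 without 4-OHT 1. In UHO-1 there were 3 and 4 falls without vehicle 1 and 2, 5 and 2 without 4-OHT 1 and 2, and 2 to 3 rises without any of its 4 arrays. The rises of L428 were 2 without 4-OHT 1, and those of SUP-HD1 1 without vehicle 2, 4-OHT 1 or 4-OHT 2. Of the 54 calls in single lines among the named members, 25 held without each array in turn.

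**Figure D4:**
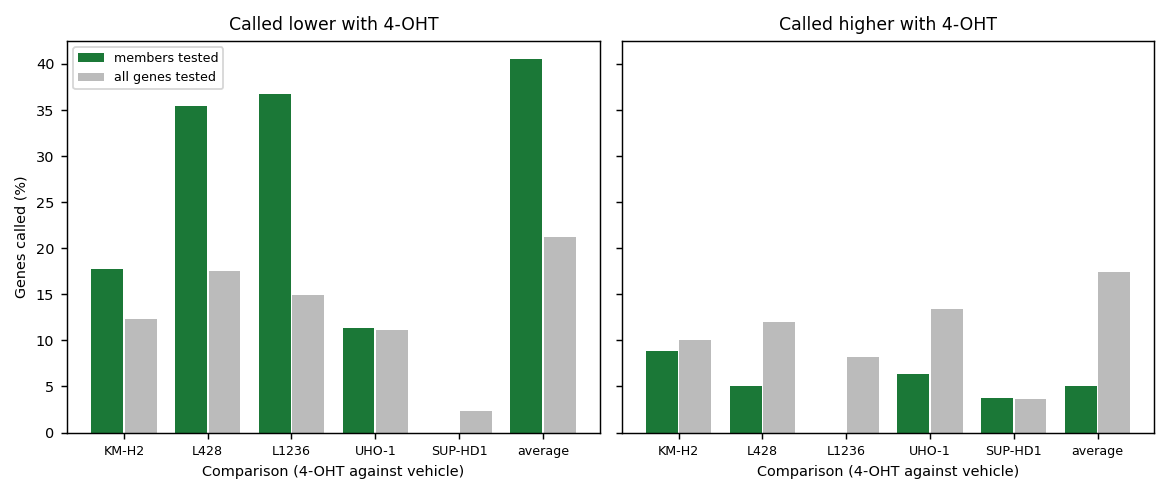
Bars give the percentage of genes called lower (left) and higher (right) with 4-OHT in each line and on average (x axis), green for the 79 members and grey for all 15850 genes tested. For falls, the gap between green and grey is widest in L1236 (36.7% against 14.9%), on average (40.5% against 21.2%) and in L428 (35.4% against 17.5%).

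Across lines, 10 members fell in at least 3 lines (12.7%, against 4.62% of all genes) and 22 in at least 2 (27.8%, against 13.5%). Besides NDUFV1 and NDUFB10, the 10 were UQCRC1, UQCR10, COX5A, COX5B, ATP5F1A, ATP5F1B, ATP5F1D and ATP5ME. At least 1 other scaling ended a call in 1 or more of these lines for NDUFV1, COX5A, COX5B, ATP5F1A and ATP5F1B. The single calls of UQCR10 and ATP5ME were not followed under the other scalings. Without L1236, 3 members fell in at least 3 of the 4 lines (3.8%, against 2.5% of all genes), 14 in at least 2 (17.7%, against 9.02%), and the F test called 27 (34.2%, against 36.4%). No line called 26 members (32.9%, against 40.7% of all genes), and 8 rose in 1 line and fell in another (10.1%, against 8.12%). The F test called a difference between lines in 31 of the 79 (39.2%), below the 42.7% of all genes. By complex these were 18 of 34 in complex I, 1 of 3 in II, 3 of 8 in III, 4 of 15 in IV and 5 of 19 in V.

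Before treatment, the lines differed in the level of these genes. KM-H2 vehicle arrays read lower than L428 in 39 members and higher in 21 (26.9% and 27.3% of all genes). Among the widest was that of NDUFA8, at 7.93 and 9.68, a difference of -1.75 ± 0.089 (adjusted p = 5.17e-14). SDHD stood the other way, at 9.79 and 8.59, or 1.20 ± 0.088 (adjusted p = 3.73e-11). Complexes I, III and V had medians below zero in KM-H2 minus L428, at -0.21, -0.41 and -0.18.

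In the other set, the arrays labelled L1236 read higher than UHO-1 in 41 members and lower in 10 (29.5% and 27.2% of all genes), and higher than SUP-HD1 in 43 and lower in 5 (30.1% and 27.4%). All 8 members of complex III were higher in L1236 than in UHO-1 (median 0.39), with UQCR11 at 8.56 and 7.55, a difference of 1.01 ± 0.098 (adjusted p = 3.92e-09). UHO-1 read higher than SUP-HD1 in 28 and lower in 17 (27.1% and 26.7%). There the F1 head was lower in UHO-1 in 3 of 4 genes, ATP5F1A with a difference of -0.82 ± 0.056 (adjusted p = 1.02e-11), while ATP5MG was higher, by 1.02 ± 0.07 (adjusted p = 1.1e-11). ATP5MG differed in each pair of the 3 lines, in the order L1236, UHO-1 and SUP-HD1, at 11.06, 10.72 and 9.70. The count for L1236 minus SUP-HD1 fell to 3 lower without SUP-HD1 vehicle 1, and was 9 lower with median centring and 10 with cyclic loess. L1236 minus UHO-1 gave 16 lower with quantile normalisation or cyclic loess. These 3 comparisons share arrays with one another and with the changes above.

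**Figure D5:**
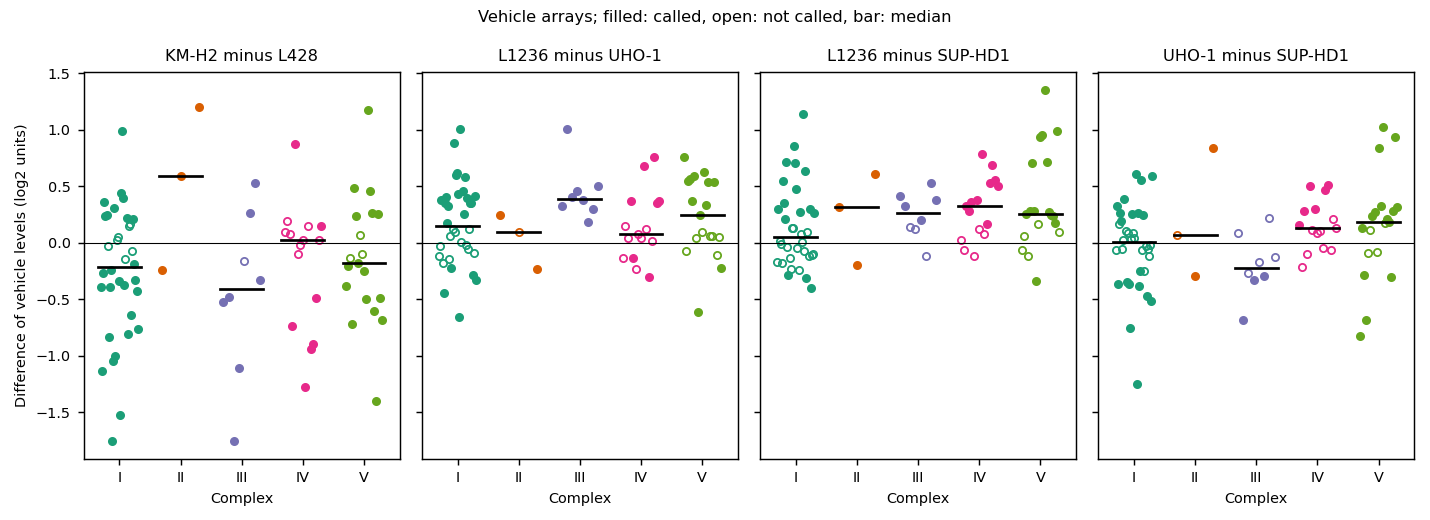
Each point is a member's difference between the vehicle arrays of 2 lines of the same set (y axis, log2 units), by complex (x axis). Filled points were called, open points were not, and black bars are medians. Complex III lies above zero in all 8 points for L1236 minus UHO-1, and most points of L1236 minus SUP-HD1 are above zero in complexes IV and V.

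Genes that build and feed the machinery were read from lists fixed with earlier results of these data known, and on average more of them fell than rose, where 21.2% of all genes fell and 17.4% rose. Of 42 measured assembly factors, 23 fell and 4 rose on average (median -0.11), or 15 and 4 without L1236 (median -0.07). In UHO-1 alone none of the 42 fell and 3 rose (median 0.009), where 11.1% of all genes fell and 13.4% rose in that line. COA7, a factor of complex IV assembly, fell most, by 0.38 ± 0.041 (adjusted p = 9.55e-08), and BCS1L, which inserts the Rieske protein into complex III, fell by 0.34 ± 0.035 (adjusted p = 4.63e-08). COX10, which makes the haem of complex IV, rose by 0.29 ± 0.034 (adjusted p = 3.96e-07) and COX20, a chaperone of its COX2 subunit, by 0.22 ± 0.052 (adjusted p = 0.00155). Of the 6 electron carriers and subunits outside the rule, 4 fell (3 without L1236), among them CYC1, the cytochrome c1 of complex III, by 0.20 ± 0.023 (adjusted p = 2.2e-07), and ETFB, which brings electrons from fatty acid oxidation, by 0.21 ± 0.039 (adjusted p = 0.000126).

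Among 18 measured genes of mitochondrial transcription and biogenesis, 9 fell and none rose (median -0.14), or 9 and 1 without L1236. MYC fell by 1.01 ± 0.034 (adjusted p = 2.82e-16), TWNK, the helicase of mitochondrial DNA, by 0.39 ± 0.04 (adjusted p = 4.4e-08), POLRMT, its RNA polymerase, by 0.31 ± 0.044 (adjusted p = 4.12e-06) and TFAM, which packs that DNA, by 0.27 ± 0.038 (adjusted p = 4.44e-06). The change of MYC was -2.44 ± 0.076 in KM-H2, -0.61 ± 0.076 in L428 and -1.37 ± 0.076 in L1236. In UHO-1 MYC was at -0.21 ± 0.076 and in SUP-HD1 at -0.43 ± 0.076. Over the lines in that order these stand beside member medians of -0.06, -0.12, -0.17, -0.04 and -0.0087, and its part in them was not tested. NRF1, GABPA and YY1, whose letters were counted in the promoters, were at 0.05 ± 0.041 (adjusted p = 0.432), -0.01 ± 0.037 (adjusted p = 0.81) and -0.08 ± 0.038 (adjusted p = 0.132).

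In the citric acid cycle 6 of 11 fell and 1 rose, with or without L1236, with IDH3A, a subunit of isocitrate dehydrogenase, at -0.31 ± 0.025 (adjusted p = 1.16e-09) and IDH3G, another one, at 0.08 ± 0.025 (adjusted p = 0.0128). At the entry of pyruvate 5 of 11 fell and 3 rose, again with or without L1236. DLAT, the acetyltransferase of pyruvate dehydrogenase, fell by 0.33 ± 0.034 (adjusted p = 6.58e-08), and PDK1, the kinase that shuts that enzyme, rose by 0.39 ± 0.037 (adjusted p = 1.36e-08). Of 12 carriers and pores 8 fell and 1 rose (6 and 0 without L1236), TOMM40, the import pore, at -0.36 ± 0.037 (adjusted p = 4.12e-08) and UCP2, a relative of the uncoupling protein, at 0.21 ± 0.059 (adjusted p = 0.00657). Mitochondrial ribosomal proteins, which make the subunits encoded in the organelle, fell in 50 of 74 and rose in 3 (median -0.15), or 38 and 3 without L1236 (median -0.12). MRPS34 fell most among them, by 0.47 ± 0.034 (adjusted p = 1.7e-10), and MRPS11 rose most, by 0.16 ± 0.024 (adjusted p = 1.06e-05). Signs of hypoxia, which is known to raise PDK1, gave 1 call among the 4 genes measured, NDRG1 at 0.32, with a list mean of 6.03 to 7.69 over the vehicle groups and 5.92 to 7.81 with 4-OHT, and their part was not tested.

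The pattern most like the median member was looked for over the 5 lines. By the root mean square difference of the 5 line changes, the nearest tested genes outside the members were EIF3G (0.018), RHOV (0.031) and MRPS16 (0.032). EIF3G, a translation initiation factor, was at -0.06 in KM-H2, -0.12 in L428 and -0.20 in L1236. Its changes in UHO-1 and SUP-HD1 were -0.07 and -0.0067. The likeness rests on 5 points that share the same arrays as the members, those labelled L1236 included.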

How the data were processed

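Gene expression had been measured on 20 human gene arrays, 2 for each of 10 groups (5 lines with vehicle or 4-OHT). The authors deposited log2 expression values for 33268 probe sets. They were computed with RMA, per the submitters' processing notes. Its version is not given in the sources used here. Sorted values fell into 2 sets, of 8 and 12 arrays, which were taken as separate normalisations. Of the probe sets, 19457 carried 1 gene symbol, 1751 several and 12060 were not listed in the probe annotation. The Entrez IDs of 19426 were found in the RefSeq gene table for GRCh38.p14, and 0 symbols changed. For each gene the probe set with the highest mean was used. Genes reading at least 5 in at least 2 arrays were tested, 15850 of 18416.

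A limma fit (version 3.58.1, R 4.3.3) had 1 mean per group over all 20 arrays, an intensity trend in the variance, 10 residual and 11.8 prior degrees of freedom. P-values were two-sided and adjusted by Benjamini-Hochberg over all genes tested. The precision is limited by 2 arrays an arm. On simulated data the average recovered 36% of changes of 0.15 and 100% of changes of 0.3. Single lines recovered 22% to 34% of changes of 0.3 and 82% to 94% of changes of 0.6. In the real data 38.6% of genes were called on average and 42.7% differed between lines. These shares therefore describe the simulated setting only.

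The members, gene lists and tests were chosen with earlier results of these data known. Values on every array are given for members picked by rule: the largest called rise and fall on average in each complex, the 2 largest called rises and falls in each line, the 5 smallest p-values of the F test between lines, and members called the same way in at least 4 lines. Core subunits of each complex, the c ring genes, ATP5IF1 and the restricted isoforms are named with at least their average. Of each further list, the genes with the largest called rise and fall are named, and others named there were chosen after their values were seen. Alternatives were other scalings within each set, other floors, no intensity trend, the mean of a gene's probe sets, replicate numbers as a block, leaving out each array or line, each line alone, and the lines as replicates. Replicate numbers were not taken as pairs, since the labels do not say what they share and the differences between replicates correlated from -0.557 to 0.294 between the arms of a line.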

Additional observations from a re-analysis of the deposited data

Results flagged for a closer look

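The change with 4-OHT differed between the lines in 31 of 79 members by limma's F test, adjusted over all genes tested (42.7% of all genes did). In complex I, the adjusted p was 2.01e-06 for the core subunit NDUFV2 and 0.00771 for the accessory NDUFV3. In other core subunits it was 0.0189 for NDUFS7, 0.02 for NDUFS3 and 0.0259 for NDUFS1. Among NDUFA subunits it was 0.000101 for NDUFA6, 0.000721 for NDUFA5, 0.0142 for NDUFA8, 0.0146 for NDUFA2, 0.0162 for NDUFA10 and 0.0197 for NDUFA9. Among NDUFB subunits it was 0.000345 for NDUFB8, 0.0124 for NDUFB4, 0.0162 for NDUFB6, 0.021 for NDUFB9, 0.0219 for NDUFB3 and 0.0332 for NDUFB11, and for NDUFS4 it was 0.0359. SDHA of complex II had 1.14e-07. In complex III the values were 0.00177 for UQCRQ, 0.00811 for UQCRC2 and 0.036 for UQCR10. In complex IV they were 5.41e-07 for COX7A2L, 0.00659 for COX7B, 0.0169 for COX6C and 0.0176 for COX6A1. In complex V they were 4.5e-05 for ATP5MC1, 0.00473 for ATP5F1D, 0.0126 for ATP5MK, 0.0166 for ATP5MJ and 0.0496 for ATP5MF. A second probe set of ATP5MK read otherwise, at -0.24 in L428 and -0.11 in L1236. The set used read 0.08 and -0.29 there. The test does not say which lines differ from which, and the arrays labelled L1236 are among them.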

How the results depend on the processing

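The precision is limited by 2 arrays an arm, and values near the floor carry little signal over background. Of the settings tried for single named members, 5486 kept a call or its absence, 194 lost a call, 73 gained one and 1 reversed. The reversal was the SDHA average, at 0.0844 over L1236, UHO-1 and SUP-HD1 alone. A change called in neither fit could switch sign and still count among the 5486. The COX7B average, for example, ran from -0.0674 to 0.174 without a call. The cause of the moves below was not tested.

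Without each array in turn, the average held 3 to 5 rises and 29 to 36 falls. Rises and falls were 2 to 7 and 5 to 15 in KM-H2, 2 to 5 and 19 to 28 in L428, 0 and 11 to 31 in L1236, 2 to 6 and 2 to 11 in UHO-1, and 1 to 3 and 0 in SUP-HD1. Changes differed between lines in 22 to 36 members. Vehicle contrasts gave 14 to 21 higher and 34 to 40 lower for KM-H2 minus L428, 38 to 41 and 7 to 11 for L1236 minus UHO-1, 37 to 43 and 3 to 6 for L1236 minus SUP-HD1, and 22 to 29 and 13 to 18 for UHO-1 minus SUP-HD1. The medians ran from -0.0828 to -0.0639 in complex I, -0.0768 to -0.0338 in II, -0.0937 to -0.0634 in III, -0.0249 to 0.0136 in IV and -0.131 to -0.103 in V.

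Quantile normalisation gave 7 rises in L428, 3 rises and 23 falls in UHO-1, and 16 members lower in L1236 than UHO-1. Median centring gave 12 rises and 8 falls in KM-H2, 16 falls in UHO-1 and 9 lower in L1236 than SUP-HD1. Cyclic loess gave 9 rises on average, 10 rises and 15 falls in L428, 15 falls in L1236 and in UHO-1, 16 lower in L1236 than UHO-1, 10 lower in L1236 than SUP-HD1, and a complex IV median of 0.0355. Without the intensity trend, 8 fell in KM-H2, 3 rose in UHO-1 and 1 in SUP-HD1. Without KM-H2 the medians of complexes I, II and IV were -0.107, 0.0351 and -0.0268, without L428 that of IV was -0.0261, and without UHO-1 that of III was -0.125. Without L1236, 7 rose on average and the median of complex I was -0.0405. With KM-H2 and L428 alone the median of complex III was -0.143, and with the other 3 lines alone 20 fell on average and that of II was 0.0227. With the lines as replicates 0 rose and 0 fell by limma's adjusted p (1 and 15 at an unadjusted p below 0.05, as were 2515 of all 15850 genes).

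With the replicate block, 4 rose and 32 fell on average, and the falls were 13 in KM-H2, 26 in L428 and 27 in L1236, with 4 rises and 8 falls in UHO-1. Under the block, calls of NDUFS1 (0.0634) and ATP5MC3 (0.0619) on average, NDUFA5 in UHO-1 (0.0643) and NDUFA1 in SUP-HD1 (0.0769) no longer passed. With the numbers of L1236 crossed, an alternative chosen after seeing the data, the block gave 39 falls on average and 8 rises in UHO-1. NDUFA4 was among no tested gene, so counting it in complex IV changed nothing.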
